A study of Mus musculus with 10 samples.

Results

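Ion channels and neurotransmitter receptors were examined on the cDNA arrays of inflamed mouse bladders. The 122 probes, each for a different gene, were those of 5030 on the array whose gene symbol belongs to the potassium (Kcn), sodium (Scn), calcium (Cacn), chloride (Clcn), TRP or HCN channel families, or to the P2, nicotinic, muscarinic, GABA, glutamate, glycine, serotonin, adrenergic or dopamine receptor families. The symbol rule also takes in auxiliary proteins, such as Kcnip3 and Trpc4ap, that form no pore themselves. C57BL/6J mice (WT) and mice that lack proteinase-activated receptor 1 (PAR1-/-), the thrombin receptor encoded by F2r, were compared. All mice were female, and their bladders were instilled through a catheter under anaesthesia. There were 10 arrays, each of 1 RNA pool made from 8 bladders. For each genotype 1 array followed saline at 24 h, and 1 array each followed Escherichia coli lipopolysaccharide (LPS, 100 µg/ml) at 4 h and 24 h and substance P (SP) at 4 h and 24 h. The labels give SP at 10 µM for WT and at 20 µM for PAR1-/- mice, while the methods describe 10 µM for both, and where the labels hold, the SP dose and the genotype cannot be told apart. There was no saline array at 4 h.

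Voltage-gated channels set the electrical activity of nerve and muscle, and ligand-gated and G protein-coupled receptors pass the signal of a transmitter to the cell. In the bladder, acetylcholine acting on muscarinic receptors and ATP acting on P2X receptors contract the detrusor muscle, L-type calcium channels carry the calcium that drives the contraction, and calcium-activated potassium channels damp it. TRP and P2X channels on sensory nerves and urothelium report stretch and irritation, and SP is itself a transmitter of sensory nerves. The arrays measured RNA of whole bladders, in which fewer cells of a type and less RNA per cell cannot be told apart. RNA made in the cell bodies of sensory neurons outside the bladder was not sampled.

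The promoters of 3 genes to which the results below return are shown, each as 300 bases from 250 before to 50 after the gene's start in RefSeq (GRCm38.p6): Trpc6 because it was the gene below 1/3 of saline in PAR1-/-, Kcnk7 because its ratios were opposed between the genotypes, and Kcnj5 because it was the one gene more than 3-fold above saline. Trpc6 lies at chr9:8543892-8544191 on the + strand, Kcnk7 at chr19:5704221-5704520 on the + strand and Kcnj5 at chr9:32344295-32344594 on the - strand. Capitals mark a GC box, read as GGGCGG on either strand.
Trpc6: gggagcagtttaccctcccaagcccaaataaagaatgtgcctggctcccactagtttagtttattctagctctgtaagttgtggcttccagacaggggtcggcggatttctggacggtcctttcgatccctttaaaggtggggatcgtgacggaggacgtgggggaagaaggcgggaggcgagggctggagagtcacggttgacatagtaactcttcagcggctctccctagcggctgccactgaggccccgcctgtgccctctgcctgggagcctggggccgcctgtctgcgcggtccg
Kcnk7: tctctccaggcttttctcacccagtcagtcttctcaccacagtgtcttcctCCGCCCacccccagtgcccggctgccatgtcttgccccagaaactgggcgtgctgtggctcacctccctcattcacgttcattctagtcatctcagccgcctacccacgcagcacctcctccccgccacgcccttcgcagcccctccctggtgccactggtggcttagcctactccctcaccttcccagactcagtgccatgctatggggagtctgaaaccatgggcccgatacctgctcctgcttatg
Kcnj5: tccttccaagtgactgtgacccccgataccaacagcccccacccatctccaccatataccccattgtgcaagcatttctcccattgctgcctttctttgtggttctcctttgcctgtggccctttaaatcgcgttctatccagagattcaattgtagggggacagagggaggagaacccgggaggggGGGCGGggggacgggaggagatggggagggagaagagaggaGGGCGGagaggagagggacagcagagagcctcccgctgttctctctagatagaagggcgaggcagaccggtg

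Kcnj5 held 2 GC boxes in this window, Kcnk7 held 1, and Trpc6 held none. Of the 122 genes 99 had a promoter in the table, and 53 of these (53.5%) had a GC box, against 35.9% of all 27025 promoters of the same length. The median GC content of the 99 promoters was 59.0%, against 52.7% over all. A TATA box, read as TATAAA, was found in 7 of the 99 (14.2% of all promoters), an AP-1 site, read as TGANTCA, in 7 (7.93% of all), and a full cyclic AMP response element, TGACGTCA, in 2 (1.88% of all). The 3 promoters shown held none of these last 3 motifs. A match of letters is a description of the sequence and not evidence that a factor was bound.

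Each value below is a spot intensity, a whole number recovered from the standardized scores that the authors deposited. Intensities were recovered for 116 of the 122 probes. Gabrd, Gria3, Kcnd3, Kcnj9, P2rx4 and Scn7a gave none. On the whole array 33 pairs of probes shared a gene, and their normalized values (below) had a median correlation of 0.140 across arrays. For 2000 random pairs it was 0.318. These pairs took in probes above background or not. A single spot may thus not follow the RNA of its gene. The threshold for a spot above background was the most frequent value of its array plus 3 SD, which came to 12.1 to 24.2 on 9 arrays and to 33.0 in WT after LPS at 24 h. On this last array 86.5% of all probes read exactly 15, the SD rested on 12 probes, and only 11.9% of all probes were above background, against 30.1% to 47.0% on the others. The F2r spot read 10, 195, 15, 22 and 11 in WT after saline, LPS at 4 h and 24 h and SP at 4 h and 24 h, and 11, 17, 18, 51 and 21 in PAR1-/-. It was above background in WT after LPS at 4 h and in PAR1-/- after SP at both times. The sources used here do not say which part of F2r the probe covers, so the spot is no check of genotype, and the genotypes are those of the labels. The smooth muscle markers were above background on 4 or more arrays for 6 of 6 probes, those of urothelium for 3 of 4, and those of neurons for 2 of 11 (Gap43 and Prph), with Snap25, Syp, Eno2 and Nefl above it on none. Of Schwann cell markers 0 of 3 reached 4 arrays, of mast cell markers 1 of 4 (Cpa3), of leukocyte markers 2 of 4 and of skeletal muscle markers 1 of 4 (Tnnt3).

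Many of the channel and receptor spots did not rise above background. Of the 116 probes 40 (34.5%) were above background on no array, 27 (23.3%) on 1 to 3 arrays, 49 (42.2%) on at least 4 and 11 (9.48%) on all 10. The same shares over all 4794 probes with intensities were 34.5%, 23.5%, 42.0% and 10.5%, so the channels and receptors were detected about as often as the array as a whole. The 40 undetected probes read between 7 and 23 on every array. The number detected followed the array. It was 32 of 116 in WT and 31 in PAR1-/- after saline, 47 to 56 on the 4 challenged PAR1-/- arrays, and 49, 16, 50 and 34 in WT after LPS at 4 h, LPS at 24 h, SP at 4 h and SP at 24 h. The shares of all probes moved alongside, and the widest gap was on the WT saline array, with 27.6% of channels and receptors against 31.3% of all probes.

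**Figure D1:**
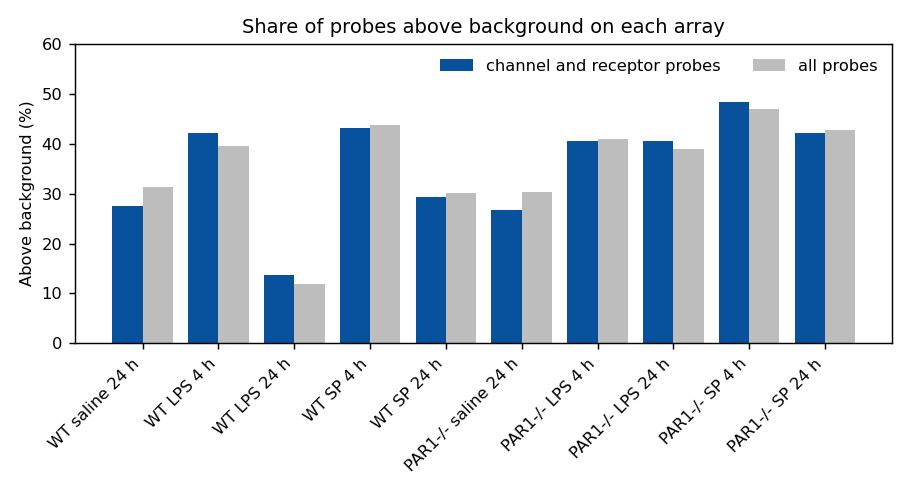
Share of probes above background (percent, y axis) on each of the 10 arrays, for the 116 channel and receptor probes (blue) and for all 4794 probes (grey), with 1 array per bar and no error. The 2 bars of each array are of similar height, from 13.8% and 11.9% in WT after LPS at 24 h to 48.3% and 47.0% in PAR1-/- after SP at 4 h.

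The families differed in how many of their probes were detected. Among channels, 4 of 6 chloride, 5 of 8 TRP, 5 of 9 calcium and 1 of 2 HCN channel probes were above background on at least 4 arrays, against 12 of 36 potassium and 0 of 2 sodium channel probes. Among receptors the count was 7 of 9 for GABA, 7 of 10 for ionotropic glutamate, 1 of 1 for metabotropic glutamate, 5 of 13 for serotonin and 2 of 8 for nicotinic receptors. No P2 (5 probes), muscarinic (2), adrenergic (2) or dopamine (3) receptor reached 4 arrays, and no glycine receptor was among the 122. These are counts of spots above a threshold, which depends on how each probe hybridizes, and the families were not tested against each other.

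**Figure D2:**
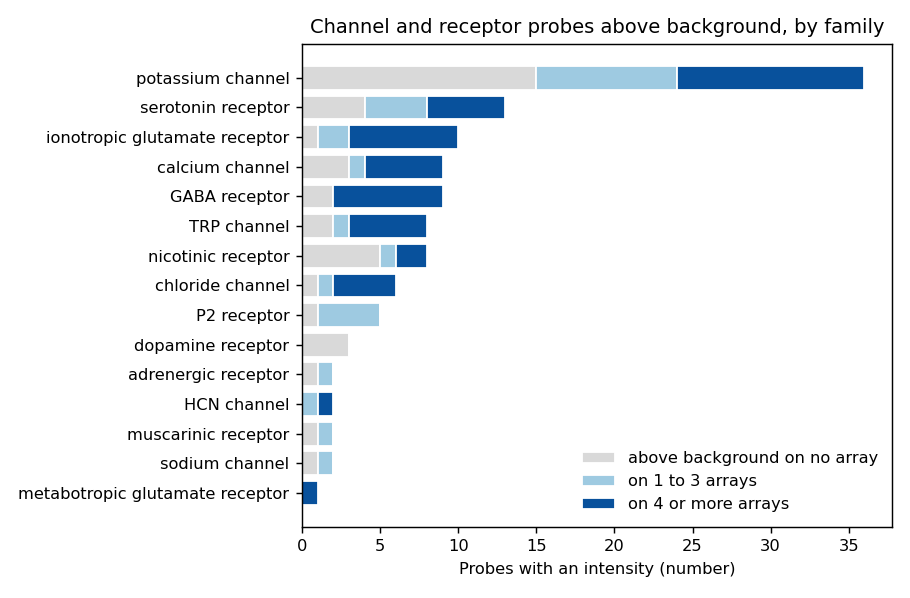
Number of probes with an intensity (x axis) in each channel and receptor family, split by whether the probe was above background on no array (light grey), on 1 to 3 arrays (light blue) or on 4 or more (dark blue). Potassium channels are the longest bar, with 15 of 36 on no array, and GABA and ionotropic glutamate receptors have 7 of 9 and 7 of 10 on 4 or more.

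Of 25 genes listed for their known role in bladder function 11 had an intensity, and most of these spots were dim. Cacna1c, the pore of the L-type calcium channel of smooth muscle, read 10, 18, 15, 12 and 10 in WT after saline, LPS at 4 h and 24 h and SP at 4 h and 24 h, and 8, 11, 10, 9 and 13 in PAR1-/-, in the same order. Kcnma1, the pore of the large-conductance calcium-activated potassium channel, read 11, 15, 15, 20 and 10 in WT and 10, 11, 11, 14 and 11 in PAR1-/-. Its smooth muscle subunit Kcnmb1 read 8 to 16. None of these spots was above background on any array, and neither were those of the serotonin receptors Htr2a, at 10 to 20, and Htr3a, at 8 to 15, which makes 5 of the 11. P2rx1, the ATP-gated channel of the detrusor, passed the threshold on 1 array, with 13 in PAR1-/- after saline. P2ry2, an ATP and UTP receptor, passed it on 1 (18 in PAR1-/- after LPS at 4 h), and Kcnj8, a pore of ATP-sensitive potassium channels, on 1 (15 in WT after saline). All 3 read as high or higher on an array whose threshold they did not pass. Adra1b, an alpha-1 adrenergic receptor, read 10, 30, 15, 34 and 12 in WT and 8, 10, 13, 18 and 16 in PAR1-/-. It was above background on 2 arrays, those of WT at 4 h after LPS and after SP. Scn10a, a sodium channel of nociceptors, was also above background on 2, with 25 in WT after LPS at 4 h and 34 in PAR1-/- after SP at 4 h. Only Chrna7, the subunit of a calcium-permeable nicotinic receptor, was above background on all 10 arrays. At this detection limit a change in the dim genes could not have been measured, and their levels were not shown to be zero.

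The 11 genes above background on all 10 arrays were Cacna1a, Cacng1, Cacng2, Chrna7, Clcn2, Clcn7, Gabra3, Htr1d, Kcnc1, Trpc4 and Trpc6. Trpc6, a cation channel opened by diacylglycerol downstream of G protein-coupled receptors, read 182, 727, 326, 631 and 182 in WT after saline, LPS at 4 h and 24 h and SP at 4 h and 24 h, and 190, 332, 320, 686 and 338 in PAR1-/-. Trpc4, a related channel, read 33, 81, 75, 148 and 34 in WT and 24, 89, 78, 252 and 97 in PAR1-/-. Gabra3, a subunit of the GABA-A receptor, read 41, 88, 86, 213 and 37 in WT and 31, 172, 197, 317 and 171 in PAR1-/-. In these 3 genes the saline arrays and the WT array of SP at 24 h were low and the SP arrays at 4 h were among the highest. The same held for Cacng1, the gamma subunit of the skeletal muscle calcium channel, which read 127, 360, 196, 645 and 98 in WT and 163, 405, 605, 925 and 748 in PAR1-/-. Cacng2, which brings AMPA receptors to the membrane, read 27, 44, 36, 161 and 20 in WT and 14, 83, 51, 102 and 86 in PAR1-/-. Htr1d, an inhibitory serotonin receptor of sensory nerve endings, read 45, 51, 80, 103 and 31 in WT and 32, 71, 70, 172 and 75 in PAR1-/-. Kcnc1, a fast delayed rectifier, read 35, 50, 52, 97 and 41 in WT and 34, 89, 81, 151 and 79 in PAR1-/-. Chrna7 read 23, 30, 47, 44 and 23 in WT and 22, 52, 51, 101 and 64 in PAR1-/-.

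**Figure D3:**
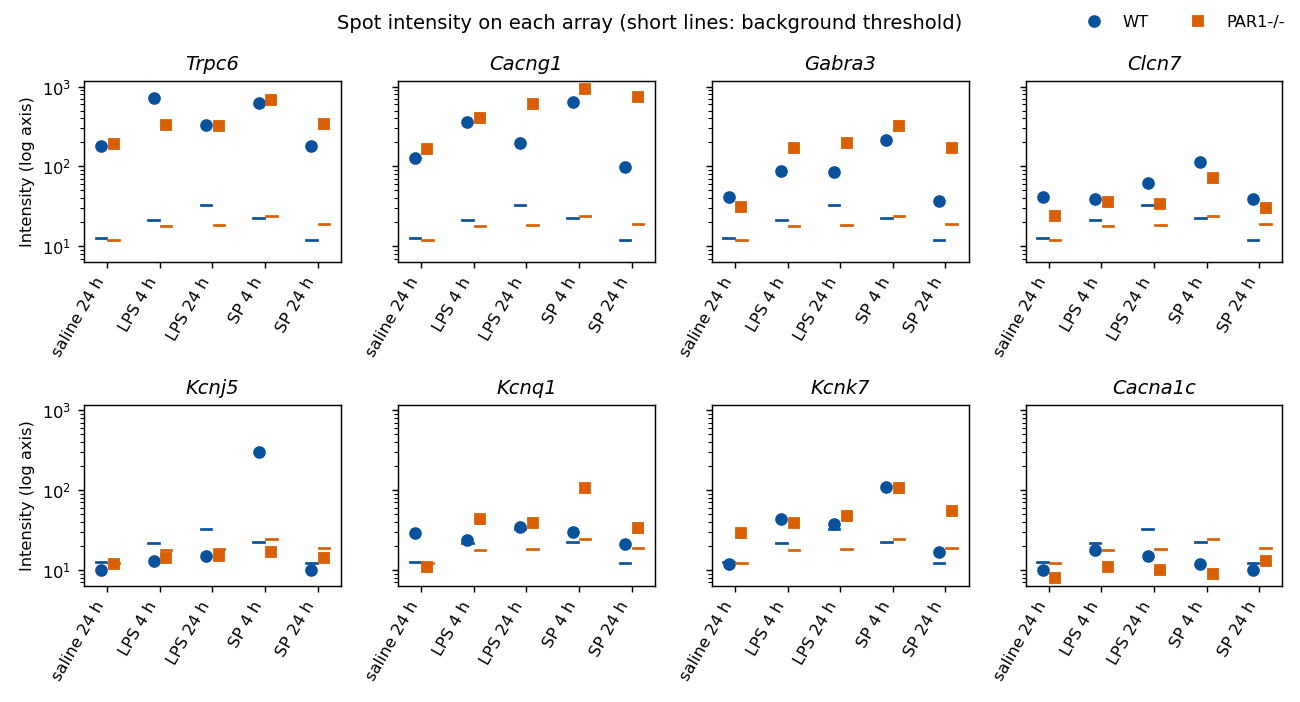
Spot intensity (y axis, log scale) on each of the 10 arrays by treatment and time (x axis) for 8 genes, in WT (blue circles) and PAR1-/- (orange squares), with 1 array per point. Short lines mark the background threshold of the array: Trpc6, Cacng1, Gabra3 and Clcn7 lie above it everywhere, Kcnj5 on 1 array with 303, and Cacna1c on none.

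The brightness of whole arrays moved in the same way. Total intensity over all probes ran from 69106 in PAR1-/- after saline to 275793 in PAR1-/- after SP at 4 h, and 71989 in WT after saline, 73146 in WT after SP at 24 h and 242953 in WT after SP at 4 h lay near these ends. Before normalization the median ratio of a challenged array to its saline array was 1.00 to 2.39 for channels and receptors and 1.00 to 2.22 for all probes. These medians took in every probe with an intensity, above background or not. After normalization by robust linear regression on the 502 probes above background on all arrays the median was 0.747 to 1.13 for channels and receptors and 0.888 to 1.11 for all probes. This median took in only probes with a ratio or a bound (below), 20 to 54 channels and receptors per comparison, with bounds taken at their value. All ratios below are of normalized intensities and so are relative to the other genes of the array. A value at or below background was set to the normalized threshold, and a ratio with 1 such value is a bound, written as at least or at most. A bound was kept only where at least lay above 1 or at most lay below 1, and otherwise no value was given. With 1 array per condition a single ratio has no error of its own. The nearest measure was the pair of saline arrays, on which the log2 ratio of PAR1-/- to WT had an SD of 0.46 over 1123 probes, a factor of 1.38.

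Few channels and receptors passed the 3-fold criterion in either direction. In WT 1 of the 59 with a value was above 3-fold in at least 1 of the 4 comparisons with saline, against 6.67% of all probes, and 2 were below 1/3, against 1.69%. In PAR1-/- 0 of 49 were above 3-fold, against 3.3%, and 1 was below 1/3, against 3.34%. The gene above 3-fold was Kcnj5, and those below 1/3 were Clcn2 and Kcnq1 in WT and Trpc6 in PAR1-/-. The criterion for PAR1 dependence, more than 3-fold above saline in WT and no change beyond 3-fold in PAR1-/-, was met by 1 of the 116 genes, Kcnj5, against 138 of 4767 genes (2.89%). No test lies behind these counts, since each ratio is of 1 array over 1 array, and the 4 comparisons of a genotype share its saline array.

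Kcnj5, a subunit of the potassium channel that muscarinic receptors open in the heart, met the criterion through 1 spot on 1 array. It read 10, 13, 15, 303 and 10 in WT after saline, LPS at 4 h and 24 h and SP at 4 h and 24 h, and 12, 14, 15, 17 and 14 in PAR1-/-. It was thus above background after SP at 4 h in WT and nowhere else, and no PAR1-/- comparison gave a ratio, because both values were below background. The ratio was at least 6.61, and at least 24.1 before normalization. The highest intensity was 17.8 times the next highest, and only 5 of all 4794 probes had a larger gap. In that comparison 4.69% of the 1833 probes with a value were above 3-fold. The probe listed next to it read 282 on the same array, and 66 to 405 on the others. Whether the listing follows the layout of the array was not tested, and neither was the part of a neighbouring spot in the reading. Kcnj3 and Kcnj6, which give the same kind of current, were above background on no array, and Kcnj9, of the same group, gave no intensity.

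A single high array was seen for other genes too. Of the 116 genes 11 were above background on exactly 1 array, and in 10 of them the intensity there was 36 or less. Counted by array, 0 to 2 channels and receptors and 0 to 116 of all 4794 probes were above background on that array only. The shares above background on 1 to 3 arrays were 23.3% of channels and receptors and 23.5% of all probes. Htr2c, a serotonin receptor of neurons, read 12, 24, 15, 37 and 12 in WT and 14, 28, 25, 113 and 26 in PAR1-/-. Kcnab2, an auxiliary subunit of voltage-gated potassium channels, read 11, 22, 15, 35 and 8 in WT and 9, 11, 79, 18 and 16 in PAR1-/-, and its ratio to saline after LPS at 24 h in PAR1-/- was at least 2.91, just short of 3-fold. Grm8, a presynaptic glutamate receptor, read 63 in PAR1-/- after SP at 4 h, the array of highest total intensity, and 10 to 27 elsewhere. After normalization it did not stand out there, at 27.5, against 26.6 in WT after LPS at 4 h and 24.5 in PAR1-/- after saline. By intensity before normalization, the high array was that of SP at 4 h in PAR1-/- for Htr2c and Grm8 and that of LPS at 24 h in PAR1-/- for Kcnab2.

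Trpc6 had low ratios to saline on each PAR1-/- array. Its normalized intensity was 663 after saline and 242, 220, 230 and 222 after LPS at 4 h and 24 h and SP at 4 h and 24 h, ratios of 0.365, 0.331, 0.347 and 0.335. In WT it was 521 after saline and 652, 446, 271 and 512 after the challenges, ratios of 1.25, 0.856, 0.520 and 0.984. The ratios of the genotypes did not overlap, with the highest of PAR1-/- below the lowest of WT. Only the ratio after LPS at 24 h was below 1/3, as were 1.43% of all probes in that comparison. The direction in PAR1-/- turned without normalization, where the ratios were 1.68 to 3.61, and after LPS at 24 h the ratio was 0.574 with quantile normalization and 0.573 with a shift to equal medians. All 4 PAR1-/- ratios rest on 1 saline array. In limma the genotype difference in the effect of challenge was -1.32 (log2, SE 0.63), with an adjusted p of 0.984 over 2014 probes.

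Clcn2 and Kcnq1 were below 1/3 of saline in WT after SP at 4 h, a comparison in which 1.47% of all probes were. Clcn2, a chloride channel of epithelia, read 27, 26, 34, 27 and 16 in WT and 24, 46, 28, 70 and 68 in PAR1-/-. Its ratio after SP at 4 h in WT was 0.309, against 1.00 before normalization: the spot kept its intensity on an array that was brighter for other genes. Kcnq1, the pore of a slow delayed rectifier of heart and epithelia, read 29, 24, 35, 30 and 21 in WT and 11, 43, 39, 107 and 34 in PAR1-/-. Its ratio after SP at 4 h in WT was 0.312, against 1.03 before normalization. Just outside the criterion lay Trpc6 in PAR1-/- after SP at 24 h, at 0.335, and Cacna1e, the pore of R-type calcium channels, at no more than 0.343 in PAR1-/- after SP at 4 h.

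For 19 genes a ratio or bound could be given in all 8 comparisons, each against the 1 saline array of its genotype. The WT and PAR1-/- ratios did not overlap for 7 of the 19, against 20.3% of the 764 probes with 8 values, where a bound was counted only on the side it limits. They were higher in PAR1-/- for Cacng2, Gabra3, Kcna5, Kcnq1 and Trpc4 and higher in WT for Kcnk7 and Trpc6. The normalized intensities of the challenged arrays did not overlap between the genotypes for Gabra3 and Trpc6. For Cacng2, Kcna5, Kcnk7, Kcnq1 and Trpc4 they did, so there the gap in the ratios came with the saline arrays. Kcna5 was below background after saline in PAR1-/-, and its bounds there could only lie above saline. Gabra3 had ratios of 1.62 to 2.03 in PAR1-/- and 0.875 to 1.18 in WT. Cacng2 had 1.57 to 2.51 in PAR1-/- and 0.664 to 1.51 in WT, with normalized saline intensities of 26.9 in PAR1-/- and 53.3 in WT. Grin2c, an NMDA receptor subunit, read 15, 50, 60, 63 and 12 in WT and 31, 38, 34, 84 and 35 in PAR1-/-, and had ratios of 0.420 to 0.497 in PAR1-/- and, with a bound of at most 0.772 after SP at 24 h, up to 2.41 in WT, while its PAR1-/- ratios were 1.10 to 2.71 before normalization. Trpc4 alone was above saline in all 8 comparisons (7.33% of the 764 probes), at 1.03 to 1.21 in WT and 1.25 to 1.81 in PAR1-/-. Those below saline in all 8 were the calcium channel subunits Cacna1a and Cacng1, the chloride transporter Clcn7, the GABA-A receptor subunit Gabrg3, the serotonin receptor Htr1d and the modifier subunit of potassium channels Kcns1, 6 of 19 against 10.3% of probes. Without normalization each of these 6 had a ratio above 1 on at least 1 array of each genotype.

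**Figure D4:**
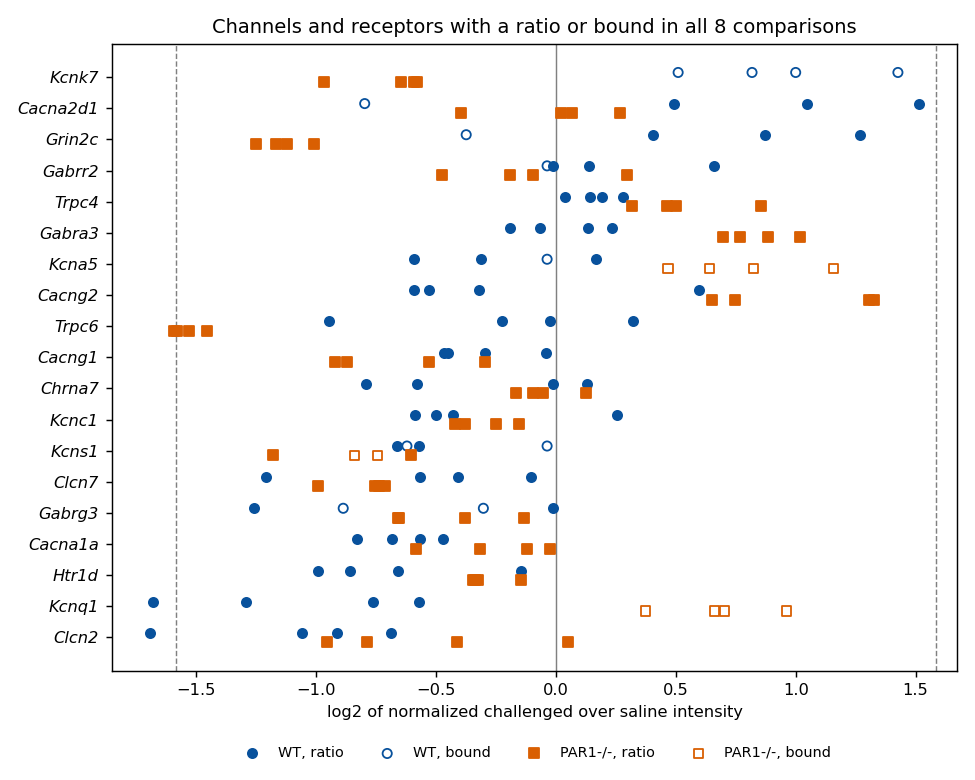
Log2 ratio of normalized intensity, challenged over saline of the same genotype (x axis), for the 19 genes with a value in all 8 comparisons (y axis, ordered by the mean in WT), with 1 point per challenged array in WT (blue circles) and PAR1-/- (orange squares); open symbols are bounds, and dashed lines mark 3-fold. Trpc6 squares lie at the lower 3-fold line, and circles and squares of Kcnk7 and Kcnq1 lie on opposite sides of 0, which they did not on every array without normalization. The open symbols of Kcnk7 and Kcnq1 could lie only above 0.

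Kcnk7 and Kcnq1 had ratios on opposite sides of saline in the 2 genotypes, 2 of 19 genes against 5.63% of the 764 probes. Kcnk7, a member of the tandem-pore potassium channel family, read 12, 44, 38, 110 and 17 in WT and 29, 39, 47, 106 and 54 in PAR1-/-, with ratios of at least 1.42 to at least 2.69 in WT and 0.511 to 0.669 in PAR1-/-. Kcnq1 had ratios of 0.312 to 0.674 in WT and of at least 1.29 to at least 1.95 in PAR1-/-. In both genes the challenged arrays of the genotypes overlapped, and the saline arrays stood apart. Kcnk7 on the saline array was at least 3.08-fold higher in PAR1-/- than in WT, where it was below background. Kcnq1 on the saline array of PAR1-/- was below background and at most 0.389 of WT. The opposite signs therefore rest on 1 saline spot per genotype. Where saline was below background, a bound was kept only above saline. The signs of Kcnk7 in WT and of Kcnq1 in PAR1-/- were thus fixed in advance. Without normalization the Kcnk7 ratios in PAR1-/- were 1.34 to 3.66 and the Kcnq1 ratios in WT 0.724 to 1.21.

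The 2 saline arrays compared the genotypes without LPS or SP, but with 1 array each a difference of genotype and of array cannot be told apart. Of the 20 channels and receptors above background on both, 0 differed by more than 3-fold, against 0.534% of 1123 probes. The widest of these were Grin2c, at 15 in WT and 31 in PAR1-/- (2.70-fold after normalization), Cacna2d1, an auxiliary calcium channel subunit, at 14 and 23 (2.03-fold), and Cacng2, at 27 and 14 (0.504-fold). A further 12 were above background in WT only and 11 in PAR1-/- only. Over all probes 1500 were above background in WT and 1456 in PAR1-/-, with the 1123 above it in both. The count beyond 3-fold leaves out these one-sided genes, among them Kcnk7, at least 3.08-fold higher in PAR1-/-, and Kcnq1, at most 0.389 of WT.

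Across arrays, limma was used to ask whether genotype, time, stimulus or challenge shifted any of the 49 channels and receptors above background on at least 4 arrays, with the conditions standing in for replicates. None of the 5 fits called a channel or receptor at an adjusted p of 0.05 over 2014 probes. For genotype (PAR1-/- minus WT) 0 of 49 were called, against 0% of all probes, and 7 (14.3%) had an unadjusted p under 0.05, against 12.9% of all probes. For time (4 h minus 24 h) 0 were called, against 0%, and 5 (10.2%) had an unadjusted p under 0.05, against 15.5%. All 5 were below background in WT after LPS at 24 h. They entered the fit there at that array's normalized threshold, 32.0, the highest of any array. For stimulus (LPS minus SP) 0 were called, against 0.0497%, and 10 (20.4%) had an unadjusted p under 0.05, against 14.5%. All 10 entered at that same threshold in WT after LPS at 24 h, so part of each difference was of thresholds. For challenge against saline 0 were called, against 0.0993%, and 4 (8.16%) had an unadjusted p under 0.05, against 10.4%. For the difference in the effect of challenge between the genotypes 0 were called, against 0%, and 3 (6.12%) had an unadjusted p under 0.05, against 3.13%. The median log2 difference of the 49 lay close to that of all probes in each fit, at -0.08 and -0.11 for genotype, -0.19 and -0.17 for time, 0.21 and 0.20 for stimulus, -0.08 and -0.04 for challenge, and -0.33 and -0.24 for the difference of effects. These medians took in values set to a threshold, for the 49 as for all probes. A p that misses the threshold does not show that a gene was unaltered.

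The genes with the smallest p in each fit were as follows. Clcn7, a chloride transporter of lysosomes, read 41, 39, 62, 114 and 39 in WT after saline, LPS at 4 h and 24 h and SP at 4 h and 24 h, and 24, 36, 34, 72 and 30 in PAR1-/-. Its normalized intensity was lower in PAR1-/- than in WT in each of the 5 conditions, by 0.93 on the log2 scale on average (SE 0.23), with an adjusted p of 0.246 in limma. Over the alternatives the adjusted p ran from 0.0184, with a shift to equal medians, to 0.651, without either array of LPS at 24 h, and it was 0.0483 without either array of LPS at 4 h. The difference was -0.56 without normalization (adjusted p 0.550) and -0.28 with the deposited scores (adjusted p 0.601). Those scores are scaled by the SD of each probe and are not normalized either, so -0.28 is not a log2 fold. Htr3b, a subunit of the serotonin-gated cation channel, read 10, 51, 15, 33 and 11 in WT and 9, 33, 28, 27 and 23 in PAR1-/-. It was higher after LPS than after SP by 0.88 on the log2 scale (SE 0.22, adjusted p 0.333). Both WT values at 24 h were below background and entered the fit at their normalized thresholds, 32.0 for LPS and 20.4 for SP. That pair thus added a difference of thresholds, and not of signal, in the same direction. Gria1, an AMPA receptor subunit, differed between 4 h and 24 h by -0.57 (SE 0.17, adjusted p 0.313), and without normalization by 0.03. Among the challenged WT arrays Gria1 was above background only after LPS at 4 h, at a normalized 21.8. The others entered the fit at their normalized thresholds, 32.0 after LPS at 24 h, and 14.0 and 20.4 after SP at 4 h and 24 h. The sign in both WT pairs thus rested on thresholds. Trpc6 differed between challenged and saline arrays by -0.88 (SE 0.34, adjusted p 0.361), and without normalization by 1.11. The value was -0.48 with quantile normalization, -0.39 with a shift to equal medians, -0.22 without the PAR1-/- saline array (adjusted p 0.999) and -1.54 without the WT saline array (adjusted p 0.243). Kcnq1 and Kcnk7 led the fit of the difference in the effect of challenge, at 1.75 (SE 0.64) and -1.64 (SE 0.60), both with an adjusted p of 0.984. That fit rests on 1 saline array per genotype and found almost none of the differences placed in simulated data, so its p says little about these genes.

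The genes around the receptors were measured from 2 lists. Of genes for transmitter supply and clearance 21 probes had an intensity, and 12 were above background on at least 4 arrays, among them Th, Dbh, Chat, Bche, Hdc and Tph1, the enzymes that make or break catecholamines, acetylcholine, histamine and serotonin. Of the 21 only Gad2, a GABA-synthesizing enzyme, passed the 3-fold criterion, at no more than 0.320 in PAR1-/- after SP at 4 h, and the dopamine transporter Slc6a3 came closest from the other side at 2.88 in WT after SP at 4 h. Of 18 probes for proteins that anchor channels and receptors 8 were above background on at least 4 arrays, with Dlg3, Dlg4 and Nsf above it on all 10, and 0 passed 3-fold. Musk, which clusters nicotinic receptors at the neuromuscular junction, reached at least 2.99 in WT after SP at 4 h. Over all probes 6.67% were above 3-fold in at least 1 WT comparison and 3.34% below 1/3 in at least 1 PAR1-/- comparison. The limma fits called 0 of the 12 and 0 of the 8 probes tested, and 5 of the 12 and 4 of the 8 had an unadjusted p under 0.05 in at least 1 of the 5 fits, against 43.9% of all 2014 probes.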

How the data were processed

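Per the methods, RNA pooled from 8 bladders was reverse-transcribed, labelled with radioactive phosphorus and hybridized to Atlas mouse plastic 5 K arrays (1 colour), and spots were quantified with AtlasImage. The values the authors deposited are scores: on the log2 scale the 10 values of a probe average 0 and have the same SD for every probe. The sources used here do not give this standardization, which was read from the values, and the scores carry no normalization between arrays. Whole-number intensities up to 3000 that give these scores were searched for and accepted where fewer than 0.01 chance matches were expected, which recovered 4794 of 5030 probes. They assume that no common factor was lost, on which ratios before normalization do not depend.

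Background was the mode of a kernel density plus 3 SD of the values below it. A robust linear regression was used to scale the arrays (rlm, MASS 7.3.60.0.1, R 4.3.3). Each challenged array was divided by the saline array of its genotype, at a criterion of 3-fold. Those probes that were above background on 4 or more arrays were fitted with limma 3.58.1, Benjamini-Hochberg adjusted, with condition (genotype), genotype by stimulus (time), genotype by time (stimulus) or genotype (challenge) as blocks. The p-values measure the spread between conditions, each with 1 array, and not between animals. The recovery of intensities and the 5 limma fits were tested on simulated data, in which the fit of the difference in challenge effect between the genotypes found almost none of the changes. The design had taken the deposited values for intensities, and the limma fits were run on the recovered ones.

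Gene names came from the array annotation, and all 122 Entrez IDs matched RefSeq. The members and gene lists were chosen with earlier results of these data known. Genes were named when beyond 3-fold or past a limma threshold, as the 2 of highest mean intensity in each family, or as known for bladder function. Other genes, among them Kcnab2, Htr3b, Gria1, Kcna5, Gabrg3, Kcns1, Cacna1a, Cacna1e, Cacna2d1, Kcnj3, Kcnj6 and Kcnj9, were named after their values were seen. Alternatives changed the arrays included, the prior variance, the filter, the saline array divided by, the fold, the normalization and the background.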

Additional observations from a re-analysis of the deposited data

Results flagged for a closer look

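In 2 genes every challenged array lay on one side of saline in WT and on the other side in PAR1-/-. In WT the ratios of Kcnk7 were at least 2.00 (LPS, 4 h), 1.76 (LPS, 24 h), 2.69 (SP, 4 h) and 1.42 (SP, 24 h), and in PAR1-/- they were 0.511, 0.639, 0.663 and 0.669. Kcnq1 had ratios of 0.408, 0.590, 0.312 and 0.674 in WT, in the same order, and of at least 1.63, 1.58, 1.95 and 1.29 in PAR1-/-. The difference between the genotypes had an adjusted p of 0.984 in limma for both, in a fit that found almost none of the differences placed in simulated data. Each genotype's 4 ratios share 1 saline array. Kcnk7 in WT and Kcnq1 in PAR1-/- were below background after saline, so their bounds could only lie above saline.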

How the results depend on the processing

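The counts beyond 3-fold are small and moved with the scaling. The shares of all probes under these alternatives were not computed, so the counts do not set channels and receptors apart from the array. Without normalization the median ratio of all probes to saline was itself up to 2.22. Without normalization 21 channels and receptors were above 3-fold in WT and 31 in PAR1-/-, 0 were below 1/3 in either, 9 met the PAR1 criterion, and 9 supply and 8 anchoring genes passed. With quantile normalization 2 were above in WT, 1 above and 0 below in PAR1-/-, 2 met the criterion and 0 supply genes passed. With a shift to equal medians 5 were below in WT and 6 in PAR1-/-, and 3 supply genes and 1 anchoring gene passed. At 2-fold 8 were above and 4 below in WT, 5 above and 8 below in PAR1-/-, 7 met the criterion, and 3 supply and 6 anchoring genes passed. With the mean of both saline arrays 1 was below in WT, 0 in PAR1-/-, and 0 supply genes passed. With background at 2 SD 1 was above and 2 were below in PAR1-/-, and 0 supply genes and 1 anchoring gene passed. At 4 SD 0 were below in PAR1-/- and 0 supply genes passed. Without the WT array of LPS at 24 h, an alternative chosen after seeing the data, 1 was above in PAR1-/-, and 0 supply genes and 1 anchoring gene passed. The cause of these shifts was not tested. The number detected on at least 4 arrays was 41 to 60.

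The limma calls were 0 in most alternatives. For genotype 1 gene, Clcn7, was called with a shift to equal medians, and 0 to 1 when arrays were left out in turn. An intensity-dependent prior variance called 1 gene for time (Gria1, adjusted p 0.0328) and 1 for stimulus (Htr3b, adjusted p 0.0369), and no normalization called 6 for challenge, with 24.2% of all probes. Gria1 and Htr3b were both below background in WT after LPS at 24 h and entered these fits there at the threshold of that array. Directions turned for the time difference of Gria1 (0.03 without normalization and 0.23 with the deposited scores), the challenge difference of Trpc6 (1.11 and 0.48), the Kcnq1 ratio in WT after SP at 4 h (1.03 without normalization) and the Trpc6 ratio in PAR1-/- after LPS at 24 h (1.68 without normalization). Values from the deposited scores are scaled by each probe's SD and carry no normalization either, so only their direction can be compared. No paired analysis was possible because each group holds 1 array and so 1 replicate number, although the genotype, time and stimulus fits do pair the arrays by condition. Detection limits the dim genes most: only 49 of 116 reached 4 arrays and entered the limma fits.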
